A study of Mus musculus with 9 samples.

Results

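The genes of glycolysis and the pentose phosphate pathway were followed in organoids grown from YAP-induced mammary stem cells (yMaSCs), in organoids grown from mammary stem cells (MaSCs) and in luminal differentiated (LD) cells of the mouse mammary gland. The set is a list of 41 enzyme genes of the 2 pathways and of the step that joins them to mitochondrial oxidation. It was chosen by gene symbol and not by a level measured here. Of the 41, 37 had a probe set annotated to that gene alone and were measured, among 18194 genes in all. Gpi1, Pfkfb1, Eno1 and G6pdx were not analysed here.

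Glycolysis splits glucose into pyruvate in the cytosol, and hexokinase, phosphofructokinase and pyruvate kinase are its near-irreversible steps. Pyruvate is either reduced to lactate by lactate dehydrogenase or oxidized by the pyruvate dehydrogenase complex, which pyruvate dehydrogenase kinases switch off. The pentose phosphate pathway draws glucose 6-phosphate away to make NADPH and ribose, and in the secretory mammary gland glucose is in addition the source of lactose and of fatty acid carbon.

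Each group had 3 arrays, lettered A, B and C as biological replicates. yMaSC organoids came from LD cells that had been given a doxycycline-inducible lentiviral vector for wild-type YAP together with rtTA, had been treated with doxycycline, and had then been passaged as organoids after doxycycline was withdrawn; MaSC organoids came from sorted MaSCs without that vector. Both kinds grew in pure Matrigel in a medium that held EGF, bFGF, heparin, noggin and R-Spondin1. LD cells were sorted as EpCAM-high, CD49f-low and CD61-negative and were used fresh, so the difference between organoids and LD cells and the difference between cultured and fresh cells cannot be told apart. Neither the labels nor the methods say which mice each letter came from, and p-values measure the spread between these samples. Values are log2 intensities after RMA, which makes the distributions of the arrays alike, so a level is relative to the other genes of its array. A gene was called changed at a Benjamini-Hochberg adjusted p under 0.05 in a limma fit of all 9 arrays, adjusted over the 18194 genes, and errors are SDs with n = 3 arrays per group.

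The labels were set against marker genes first. Krt8, the luminal keratin, lay at 13.18 to 13.41 in yMaSC organoids, at 13.14 to 13.48 in MaSC organoids and at 14.13 to 14.26 in LD cells. Of the 9 luminal markers 6 were lower and 1 was higher in each kind of organoid, the higher one being Elf5, a factor of luminal progenitors and alveolar cells (log2 2.73 in yMaSC and 2.78 in MaSC organoids). Trp63, which marks basal cells, lay at 8.66 to 8.96 in yMaSC organoids, at 8.57 to 9.34 in MaSC organoids and at 3.60 to 3.98 in LD cells. The LD samples also carried Ptprc, the pan-leukocyte CD45, at 8.94, 8.49 and 8.17, against 2.64 to 2.99 in yMaSC organoids and 2.70 to 2.98 in MaSC organoids. The antibodies used in the sort included a cocktail against blood lineages. Of the 8 immune markers, 7 were lower in each kind of organoid, and the log2 of their summed signal was 7.43 to 7.50 in yMaSC organoids, 7.48 to 7.83 in MaSC organoids and 10.39 to 11.07 in LD cells. LD sample B stood apart from LD samples A and C. It held Fabp4, of the adipocyte list, at 10.92 (4.20 and 3.70 in A and C), the fibroblast gene Col3a1 at 9.55 (7.01 and 6.0) and the endothelial gene Cldn5 at 7.57 (3.95 and 4.07), and it held the milk gene Csn2 at 3.44 (12.98 and 12.97). The other 4 measured adipocyte markers did not stand apart in sample B: Adipoq, which defines adipocytes, read 3.28 there (2.80 and 3.16 in A and C), and the remaining 3 lay at 2.91 to 5.0. Across the LD samples the log2 summed signal spanned 6.15 to 10.97 for the adipocyte list, 10.50 to 12.47 for the 6 fibroblast markers and 6.51 to 8.90 for the 6 endothelial markers. The span of the adipocyte list came from Fabp4, as its other 4 markers did not stand apart. The part of these other cells in the enzyme values was not tested, and in bulk RNA fewer cells of a type and less RNA per cell cannot be told apart.

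Most of the measured enzyme genes differed between organoids and LD cells, and most of those were higher in organoids. In yMaSC organoids 20 of the 37 were higher than in LD cells (54.1%), where 21.6% of all genes tested were, and 7 were lower (18.9%), where 14.3% of all genes were. In MaSC organoids 19 were higher (51.4%, against 22.1% of all genes) and 9 were lower (24.3%, against 15.2%). The median log2 difference of the 37 genes was 0.66 in yMaSC organoids and 0.67 in MaSC organoids, while over all genes it was -0.01 in yMaSC organoids and -0.02 in MaSC organoids. The enzyme genes are brighter than most, and a bright gene is called more often: of the 29 whose mean lay above the median of all genes, 19 were higher in yMaSC organoids, where 35.9% of the 9096 genes above that median were, and 18 were higher in MaSC organoids, where 36.8% were. Both comparisons share the LD arrays, so their calls are not independent. In the plot of changes from LD cells, the middle of the pathway stands to the right of 0 as a block, and the entry, regulatory and pentose phosphate steps lie on both sides.

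**Figure D1:**
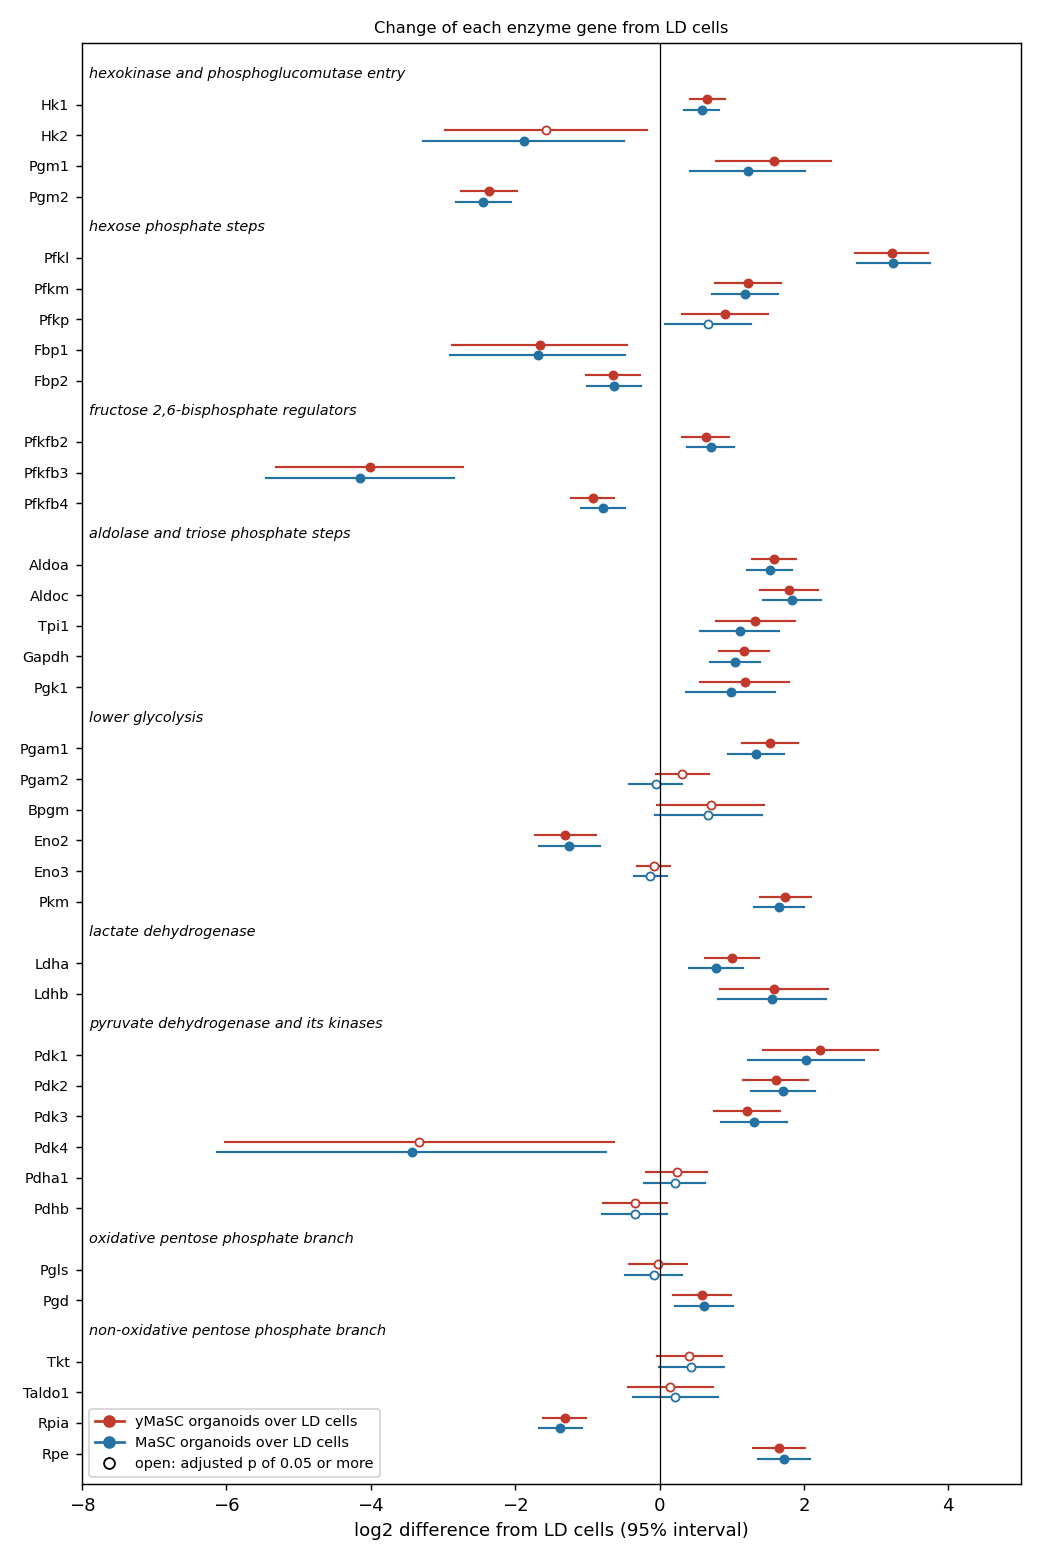
Log2 difference from LD cells (x axis) with its 95% interval for the 37 measured genes, ordered by step, for yMaSC organoids (red, upper mark) and MaSC organoids (blue, lower mark); open marks did not pass the adjusted p of 0.05. All 5 aldolase and triose phosphate genes lie to the right of 0, and Pfkfb3, Pdk4 and Pgm2 lie farthest to the left.

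At the entry of glucose the hexokinase genes lay on opposite sides. Hk1, the hexokinase that most cells use, read 10.41, 10.39 and 10.43 in yMaSC organoids A, B and C, 10.42, 10.31 and 10.27 in MaSC organoids, and 9.93, 9.61 and 9.71 in LD cells. All organoid samples were above all LD samples, and the log2 difference was 0.66 (95% interval 0.42 to 0.90, adjusted p = 0.0014) in yMaSC organoids and 0.58 (0.34 to 0.82, adjusted p = 0.0025) in MaSC organoids. Hk2, the insulin-responsive hexokinase, read 6.70, 7.0 and 9.10 in yMaSC organoids, 6.68, 7.26 and 7.93 in MaSC organoids, and 9.13, 9.74 and 8.65 in LD cells. yMaSC organoid C lay inside the LD range and the other organoids lay below it. The log2 difference was -1.57 in yMaSC organoids, which did not pass (adjusted p = 0.078), and -1.88 in MaSC organoids (adjusted p = 0.040). Without yMaSC organoid C the first became -2.32 and passed (adjusted p = 0.0032), and the second no longer passed when any of the LD samples or MaSC organoid A or B was left out (adjusted p = 0.051 to 0.13).

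The phosphoglucomutases, which move phosphate within a sugar, also went opposite ways. Pgm2, which in humans acts mainly on pentose phosphates, read 7.20, 6.98 and 7.36 in yMaSC organoids, 6.88, 6.98 and 7.45 in MaSC organoids, and 9.65, 9.58 and 9.40 in LD cells. No organoid overlapped an LD sample, and Pgm2 was 5.15-fold lower in yMaSC organoids (adjusted p = 2.2e-05) and 5.43-fold lower in MaSC organoids (adjusted p = 1.7e-05). Pgm1, which links glucose 6-phosphate to glycogen, was higher by 1.58 log2 in yMaSC organoids (adjusted p = 0.0073) and by 1.22 in MaSC organoids (adjusted p = 0.024). Its highest sample was yMaSC organoid C at 9.99, against 8.52 to 9.13 in the other organoids and 7.26 to 7.96 in LD cells. The call in MaSC organoids failed without LD sample A or B or MaSC organoid B or C (adjusted p = 0.059 to 0.074).

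Phosphofructokinase makes the committed step of glycolysis, and its liver subunit Pfkl was among the genes that rose most. Pfkl read 10.20, 10.78 and 10.83 in yMaSC organoids, 10.60, 10.77 and 10.51 in MaSC organoids, and 7.18, 7.16 and 7.82 in LD cells. It was 9.30-fold higher in yMaSC organoids (log2 3.22, 95% interval 2.71 to 3.72, adjusted p = 1.9e-05) and 9.45-fold higher in MaSC organoids (log2 3.24, 2.73 to 3.75, adjusted p = 1.6e-05). A dimmer Pfkl probe set gave 2.55 log2 in yMaSC and 2.65 in MaSC organoids. The dimmest gave 0.80 in yMaSC organoids (adjusted p = 0.056 over all probe sets) and 0.70 in MaSC organoids (adjusted p = 0.085), and did not pass. With the mean of all probe sets Pfkl was higher by 2.19 log2 in yMaSC and 2.20 in MaSC organoids. The muscle subunit Pfkm averaged 8.42 ± 0.18 in yMaSC organoids, 8.39 ± 0.17 in MaSC organoids and 7.20 ± 0.41 in LD cells, with log2 differences of 1.23 in yMaSC organoids (adjusted p = 0.0016) and 1.19 in MaSC organoids (adjusted p = 0.0017). The platelet subunit Pfkp was higher by 0.91 log2 in yMaSC organoids (adjusted p = 0.024) and by 0.67 in MaSC organoids, which did not pass (adjusted p = 0.074), and a test of the difference between the organoids gave 0.24 log2 (95% interval -0.36 to 0.83). Another Pfkp probe set was higher in both (1.17 log2 in yMaSC and 0.94 in MaSC organoids). The dimmest gave -0.76 in yMaSC and -0.80 in MaSC organoids and did not pass, so the 3 probe sets of Pfkp do not share a direction. The call in yMaSC organoids failed without LD sample A or C or yMaSC organoid B or C (adjusted p = 0.061 to 0.089), and without MaSC organoid C the gene passed in MaSC organoids (0.96 log2, adjusted p = 0.0093).

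Of the 5 measured genes that act against or adjust phosphofructokinase, 4 were lower in both kinds of organoid. Over all genes 14.3% were lower in yMaSC organoids and 15.2% in MaSC organoids. Fructose 1,6-bisphosphatase 1 (Fbp1), which runs the step backward in gluconeogenesis, averaged 5.67 ± 0.56 in yMaSC organoids, 5.64 ± 1.17 in MaSC organoids and 7.33 ± 0.34 in LD cells. All organoids were below all LD samples (adjusted p = 0.039 in yMaSC and 0.035 in MaSC organoids), but the call failed without any 1 of the LD samples (adjusted p = 0.059 to 0.11), without any 1 of the yMaSC organoids or MaSC organoid A for yMaSC organoids (0.055 to 0.13), and without MaSC organoid A or B for MaSC organoids (0.069 and 0.072). Fbp2, the muscle form, was dim everywhere, at 4.24 to 4.33 in yMaSC organoids, 4.27 to 4.35 in MaSC organoids and 4.52 to 5.21 in LD cells (log2 -0.64, adjusted p = 0.014 in yMaSC organoids and log2 -0.63, adjusted p = 0.016 in MaSC organoids), and its call in MaSC organoids failed without LD sample A (adjusted p = 0.051) or MaSC organoid A (0.052). The enzymes of the Pfkfb family make and break fructose 2,6-bisphosphate, an activator of phosphofructokinase, and Pfkfb3, the one most biased to making it, was lower in both. It read 5.08, 5.73 and 7.58 in yMaSC organoids, 5.54, 5.96 and 6.49 in MaSC organoids, and 10.62, 9.91 and 9.91 in LD cells. All organoids lay below all LD samples, and organoid C was the highest of each kind. Pfkfb3 was 16.2-fold lower in yMaSC organoids (log2 -4.02, 95% interval -5.32 to -2.72, adjusted p = 7.4e-04) and 17.8-fold lower in MaSC organoids (log2 -4.15, -5.45 to -2.85, adjusted p = 5.8e-04). Pfkfb4 was lower by a smaller amount (log2 -0.93, adjusted p = 7.1e-04 in yMaSC organoids and log2 -0.78, adjusted p = 0.0016 in MaSC organoids). Pfkfb2 was higher (log2 0.64, adjusted p = 0.0073 in yMaSC organoids and log2 0.71, adjusted p = 0.0041 in MaSC organoids), though its other 3 probe sets, all dimmer, did not pass.

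**Figure D2:**
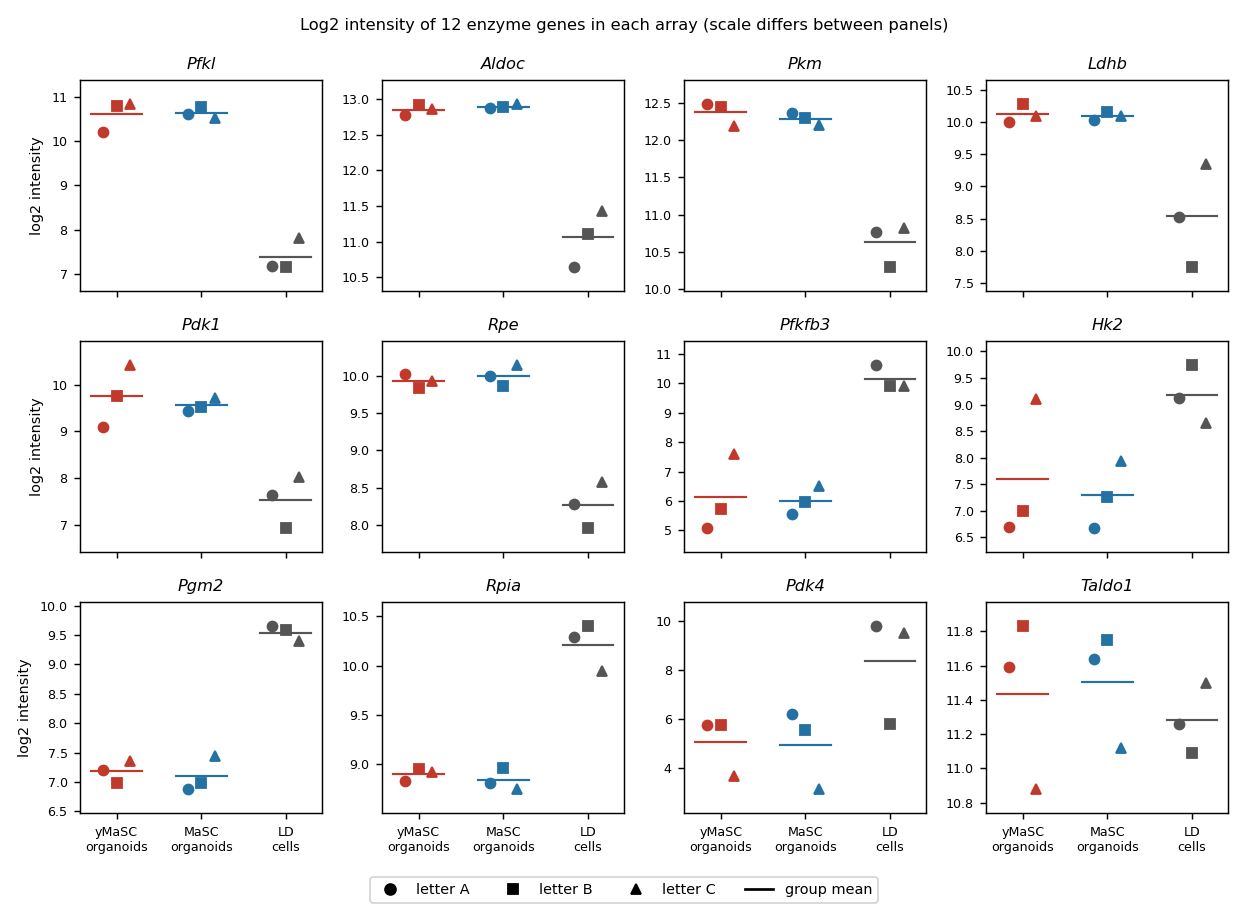
Log2 intensity (y axis, a scale of its own in each panel) of 12 of the genes in yMaSC organoids, MaSC organoids and LD cells, with a point per array shaped by its letter and a line at the group mean. Pfkl, Aldoc, Pkm, Ldhb, Pdk1 and Rpe are higher in every organoid than in any LD sample, Pfkfb3, Pgm2 and Rpia are lower, and for Pdk4 and Taldo1 organoids C lie below organoids A and B of both kinds.

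For the steps from fructose 1,6-bisphosphate to 3-phosphoglycerate, all 5 measured genes were higher in both kinds of organoid, where 21.6% of all genes were higher in yMaSC organoids and 22.1% in MaSC organoids. Aldolase A (Aldoa) read 13.11, 13.34 and 13.51 in yMaSC organoids, 13.18, 13.40 and 13.20 in MaSC organoids, and 11.56, 11.85 and 11.80 in LD cells. This was 3.0-fold higher in yMaSC organoids (log2 1.58, adjusted p = 5.2e-05) and 2.87-fold higher in MaSC organoids (log2 1.52, adjusted p = 5.7e-05). Aldolase C (Aldoc), the form known from brain, was already bright in LD cells at 10.65, 11.11 and 11.43 and stood at 12.78 to 12.92 in yMaSC organoids and 12.87 to 12.93 in MaSC organoids. Its log2 difference was 1.79 in yMaSC organoids (adjusted p = 1.0e-04) and 1.83 in MaSC organoids (adjusted p = 8.1e-05), and its other probe set gave 3.81 in yMaSC and 3.87 in MaSC organoids. Triose phosphate isomerase (Tpi1) was higher by 1.33 log2 in yMaSC organoids (adjusted p = 0.0027) and by 1.11 in MaSC organoids (adjusted p = 0.0062). Phosphoglycerate kinase (Pgk1), which makes the first ATP of the pathway, was higher by 1.18 log2 in yMaSC organoids (adjusted p = 0.0085) and by 0.98 in MaSC organoids (adjusted p = 0.019). The dehydrogenase of the steps, Gapdh, is often used to scale other genes, and it read 13.56, 13.70 and 13.88 in yMaSC organoids, 13.51, 13.70 and 13.55 in MaSC organoids, and 12.73, 12.23 and 12.67 in LD cells. The log2 difference was 1.17 in yMaSC organoids (adjusted p = 4.5e-04) and 1.04 in MaSC organoids (adjusted p = 7.8e-04). Its 3 probe sets, which are control sets of the array, gave increases of 1.05 to 1.27 log2 in yMaSC organoids and 0.89 to 1.09 in MaSC organoids. The call of Pgk1 in MaSC organoids did not pass when LD sample A or C or MaSC organoid B or C was left out (adjusted p = 0.052 to 0.063).

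Of the 6 measured genes of lower glycolysis, 2 were higher and 1 was lower in both kinds of organoid. Over all genes, 21.6% were higher and 14.3% lower in yMaSC organoids, and 22.1% were higher and 15.2% lower in MaSC organoids. Phosphoglycerate mutase 1 (Pgam1) averaged 11.41 ± 0.27 in yMaSC organoids, 11.22 ± 0.036 in MaSC organoids and 9.88 ± 0.27 in LD cells (log2 1.53, adjusted p = 1.9e-04 in yMaSC organoids and log2 1.34, adjusted p = 3.7e-04 in MaSC organoids). Pyruvate kinase (Pkm) read 12.48, 12.44 and 12.19 in yMaSC organoids, 12.36, 12.29 and 12.20 in MaSC organoids, and 10.76, 10.30 and 10.82 in LD cells. That is 3.35-fold higher in yMaSC organoids (log2 1.74, adjusted p = 5.9e-05) and 3.15-fold higher in MaSC organoids (log2 1.66, adjusted p = 6.9e-05). The neuronal enolase Eno2 read 3.37 to 3.71 in yMaSC organoids and 3.52 to 3.62 in MaSC organoids, near the lower quartiles of the arrays (3.47 to 3.59), against 4.54 to 5.28 in LD cells. It was lower in both (log2 -1.30, adjusted p = 7.7e-04 in yMaSC organoids and log2 -1.25, adjusted p = 9.2e-04 in MaSC organoids), and values this dim bound the size of a decrease only from one side. The muscle forms Pgam2 (4.39 to 5.05 in all arrays) and Eno3 (5.91 to 6.26) and the red cell enzyme Bpgm did not pass in either comparison, though without LD sample C Pgam2 passed as higher in yMaSC organoids (0.47 log2, adjusted p = 0.043). The interval for Eno3 was -0.31 to 0.15 log2 in yMaSC organoids and -0.35 to 0.10 in MaSC organoids. For Bpgm the difference was 0.71 log2 (-0.04 to 1.45) in yMaSC organoids and 0.68 (-0.07 to 1.42) in MaSC organoids, and with both organoids C left out it passed, at 1.05 in yMaSC organoids (adjusted p = 0.018) and 0.81 in MaSC organoids (adjusted p = 0.049). Of its other 2 probe sets, 1 passed in yMaSC organoids (0.98 log2, adjusted p = 0.048 over all probe sets). Of the 9 skeletal muscle markers and 4 erythroid markers none passed in MaSC organoids, and in yMaSC organoids only the erythroid gene Alas2 did, lower than in LD cells (log2 -0.69).

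Both lactate dehydrogenase genes were higher in each kind of organoid, where 21.6% of all genes were higher in yMaSC and 22.1% in MaSC organoids. Ldha, whose subunit favours lactate formation, read 12.26, 12.55 and 12.89 in yMaSC organoids, 12.21, 12.46 and 12.34 in MaSC organoids, and 11.49, 11.47 and 11.72 in LD cells. The log2 difference was 1.01 in yMaSC organoids (adjusted p = 0.0015) and 0.78 in MaSC organoids (adjusted p = 0.0054). Ldhb, whose subunit favours the return to pyruvate, read 10.0, 10.28 and 10.10 in yMaSC organoids, 10.04, 10.16 and 10.10 in MaSC organoids, and 8.52, 7.75 and 9.35 in LD cells. The log2 difference was 1.59 in yMaSC organoids (adjusted p = 0.0053) and 1.56 in MaSC organoids (adjusted p = 0.0055). For Ldhb the organoids lay close together, and the LD samples were spread wider (SD 0.80, against 0.14 in yMaSC organoids and 0.060 in MaSC organoids), with sample B lowest.

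At the pyruvate dehydrogenase step 3 of the 4 kinases were higher and neither measured subunit of the complex passed. The share of all genes that were higher was 21.6% in yMaSC organoids and 22.1% in MaSC organoids. Pdk1 read 9.10, 9.75 and 10.42 in yMaSC organoids, 9.44, 9.53 and 9.71 in MaSC organoids, and 7.64, 6.93 and 8.02 in LD cells. It was 4.68-fold higher in yMaSC organoids (log2 2.23, adjusted p = 0.0013) and 4.08-fold higher in MaSC organoids (log2 2.03, adjusted p = 0.0020). Pdk2, the kinase most tissues express, was higher by 1.61 log2 in yMaSC organoids (adjusted p = 3.3e-04) and by 1.71 in MaSC organoids (adjusted p = 2.2e-04). Pdk3 was higher by 1.21 log2 in yMaSC organoids (adjusted p = 0.0016) and by 1.31 in MaSC organoids (adjusted p = 0.0010). The catalytic subunit genes Pdha1 and Pdhb averaged 11.54 ± 0.24 and 10.30 ± 0.15 in yMaSC organoids, 11.52 ± 0.17 and 10.30 ± 0.22 in MaSC organoids, and 11.31 ± 0.32 and 10.65 ± 0.37 in LD cells. The 95% interval for Pdha1 was -0.19 to 0.66 log2 in yMaSC organoids and -0.21 to 0.63 in MaSC organoids, and that for Pdhb was -0.79 to 0.10 in each. Pdhb passed as lower when LD sample B was left out (log2 -0.56 in each kind, adjusted p = 0.023 in yMaSC and 0.022 in MaSC organoids).

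Pdk4, the kinase raised by fasting and fatty acids in other tissues, lay on the other side from the rest of its family and varied widely among samples. It read 5.75, 5.75 and 3.65 in yMaSC organoids, 6.18, 5.53 and 3.12 in MaSC organoids, and 9.80, 5.80 and 9.53 in LD cells. LD sample B thus lay among the organoids, far below LD samples A and C, and organoids C lay below all others. The log2 difference was -3.33 in yMaSC organoids (95% interval -6.02 to -0.63, adjusted p = 0.057) and -3.43 in MaSC organoids (-6.13 to -0.74, adjusted p = 0.0495). Without LD sample B it passed in both, at -4.62 in yMaSC organoids (adjusted p = 0.0072) and -4.72 in MaSC organoids (adjusted p = 0.0062), while without LD sample A or C it passed in neither. The call in MaSC organoids also failed without any 1 of the MaSC organoids (adjusted p = 0.054 to 0.15) and without yMaSC organoid A or B (0.066 and 0.068), and yMaSC organoids passed without MaSC organoid C (0.043). Of the 7 milk genes 6 were lowest in LD sample B among the LD samples: Csn2 read 12.98, 3.44 and 12.97 and Wap read 12.10, 4.33 and 10.91 in LD samples A, B and C, and in all organoids Csn2 stayed at or below 3.50 and Wap at or below 5.29. Csn3 did not share this order, at 13.60, 13.70 and 13.80 in LD samples A, B and C. Csn1s1 was high in organoids C, where Pdk4 was low (13.29 in yMaSC organoid C and 12.85 in MaSC organoid C, against 7.72 to 9.14 in organoids A and B). The part of secretory cells in the Pdk4 value was not tested.

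The oxidative branch of the pentose phosphate pathway was measured by 2 genes. Pgd, which makes NADPH and ribulose 5-phosphate as the last step of the branch, was higher by 0.59 log2 in yMaSC organoids (adjusted p = 0.030) and by 0.61 in MaSC organoids (adjusted p = 0.024). Its values were 11.82, 11.76 and 11.17 in yMaSC organoids, 11.74, 11.68 and 11.41 in MaSC organoids, and 11.05, 10.93 and 11.01 in LD cells, with organoid C lowest of each kind. The call failed without LD sample B or C in both kinds (adjusted p = 0.056 to 0.074), without LD sample A in yMaSC organoids (0.058), and without organoid A or B of the kind compared (0.076 to 0.11). Pgls, the lactonase, did not pass, with a 95% interval of -0.42 to 0.37 log2 in yMaSC organoids and -0.48 to 0.31 in MaSC organoids.

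In the non-oxidative branch the enzymes that share ribulose 5-phosphate went opposite ways. The epimerase Rpe, which leads to xylulose 5-phosphate, read 10.02, 9.83 and 9.93 in yMaSC organoids, 9.99, 9.86 and 10.14 in MaSC organoids, and 8.28, 7.96 and 8.58 in LD cells. The isomerase Rpia, which leads to ribose 5-phosphate, read 8.83, 8.95 and 8.92 in yMaSC organoids, 8.81, 8.96 and 8.75 in MaSC organoids, and 10.29, 10.40 and 9.95 in LD cells. Neither gene had an organoid inside the LD range. Rpe was 3.15-fold higher in yMaSC organoids (log2 1.65, adjusted p = 9.5e-05) and 3.30-fold higher in MaSC organoids (log2 1.72, adjusted p = 6.9e-05), while Rpia was 2.49-fold lower in yMaSC organoids (log2 -1.31, adjusted p = 1.1e-04) and 2.59-fold lower in MaSC organoids (log2 -1.37, adjusted p = 7.8e-05). Transketolase (Tkt) and transaldolase (Taldo1), which pass carbon back to glycolysis, did not pass (log2 0.41 for Tkt and 0.15 for Taldo1 in yMaSC organoids, and 0.44 and 0.22 in MaSC organoids). A second, nearly as bright probe set of Tkt did pass, at 0.93 log2 in yMaSC organoids (adjusted p = 0.0097 over all probe sets) and 0.86 in MaSC organoids (adjusted p = 0.013), so the call for Tkt depends on the probe set. Without LD sample C the first probe set passed as well, at 0.61 log2 in yMaSC organoids (adjusted p = 0.034) and 0.63 in MaSC organoids (adjusted p = 0.028).

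yMaSC organoids were then compared with MaSC organoids. Both grew as organoids in the same matrix and medium, but their source cells, the vector and the earlier doxycycline treatment differed. None of the 37 genes passed, and neither did any of the 18194 genes tested (0%). At an unadjusted p under 0.05 there was 1 of the 37 and 104 of all genes. The median size of the difference was 0.07 log2 for the 37 genes and 0.07 over all genes. For 32 of the 37 the 95% interval lay within 1 log2 of 0, as it did for 16954 of the 18194 genes tested. The largest difference was that of Pgam2, at 0.37 log2 (95% interval 0.01 to 0.73, adjusted p = 1). The 5 genes with wider intervals included Pdk4 (-2.59 to 2.80), Hk2 (-1.09 to 1.71) and Pfkfb3 (-1.17 to 1.43). These intervals are from the fit of all 9 arrays, which does not pair organoids by letter and did not bound a 2-fold difference for them. Within letters A, B and C the differences were -0.43, 0.22 and 0.53 for Pdk4 and 0.02, -0.26 and 1.17 for Hk2. For Pfkfb3 they were -0.46, -0.23 and 1.09.

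Organoids of the same letter resembled each other across genes (r = 0.607, 0.611 and 0.649 for A, B and C, between deviations from the group means over all genes), so the kinds can be set side by side within a letter. In letter A the yMaSC organoid exceeded the MaSC organoid by over 0.5 log2 for 0 of the 37 genes, where 1.6% of all genes did so. In letter B it did so for 1 gene, Fbp1 at 0.64 (1.07% of all genes), and in letter C for 10 genes (3.79% of all genes). With 1 array on each side these are values with no test. The 10 genes in letter C were Hk2 (1.17), Pfkfb3 (1.09), Pfkp (0.89), Pgm1 (0.86), Pdk1 (0.71), Tpi1 (0.68), Pgk1 (0.61), Ldha (0.55), Pdk4 (0.53) and Pgam1 (0.51), and Fbp1 was lower by over 0.5 (-0.72). Over the 37 genes the median difference was 0 in A, 0.06 in B and 0.01 in C.

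Genes outside glycolysis that low oxygen is known to raise were set beside them. Of 18 listed, 16 were measured, and in letter C 12 of them exceeded 0.5 log2 in the yMaSC organoid, where 3.79% of all genes did. In each of the other letters 1 did so (1.6% of all genes in A and 1.07% in B). The median difference was 0.08 in A, 0.06 in B and 1.27 in C. The 4 largest in letter C, named after their values were seen, were Adm (adrenomedullin) at 3.52, Car9 (carbonic anhydrase 9) at 2.44, Vegfa (vascular endothelial growth factor A) at 2.29 and P4ha2 (a collagen prolyl hydroxylase) at 1.86. Vegfa read 6.68, 6.70 and 9.73 in yMaSC organoids A, B and C and 6.57, 6.88 and 7.44 in MaSC organoids. Stc2 (-1.33) and Car12 (-0.14) of the same list were lower in yMaSC organoid C than in MaSC organoid C. The 10 enzyme genes were picked by their value in letter C, so their higher value there was fixed by the choice. Over all 37 enzyme genes the median in letter C was 0.01. Of the 10, Pdk4 was low in both organoids C (3.65 in yMaSC organoid C and 3.12 in MaSC organoid C). The part of oxygen was not tested.

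**Figure D3:**
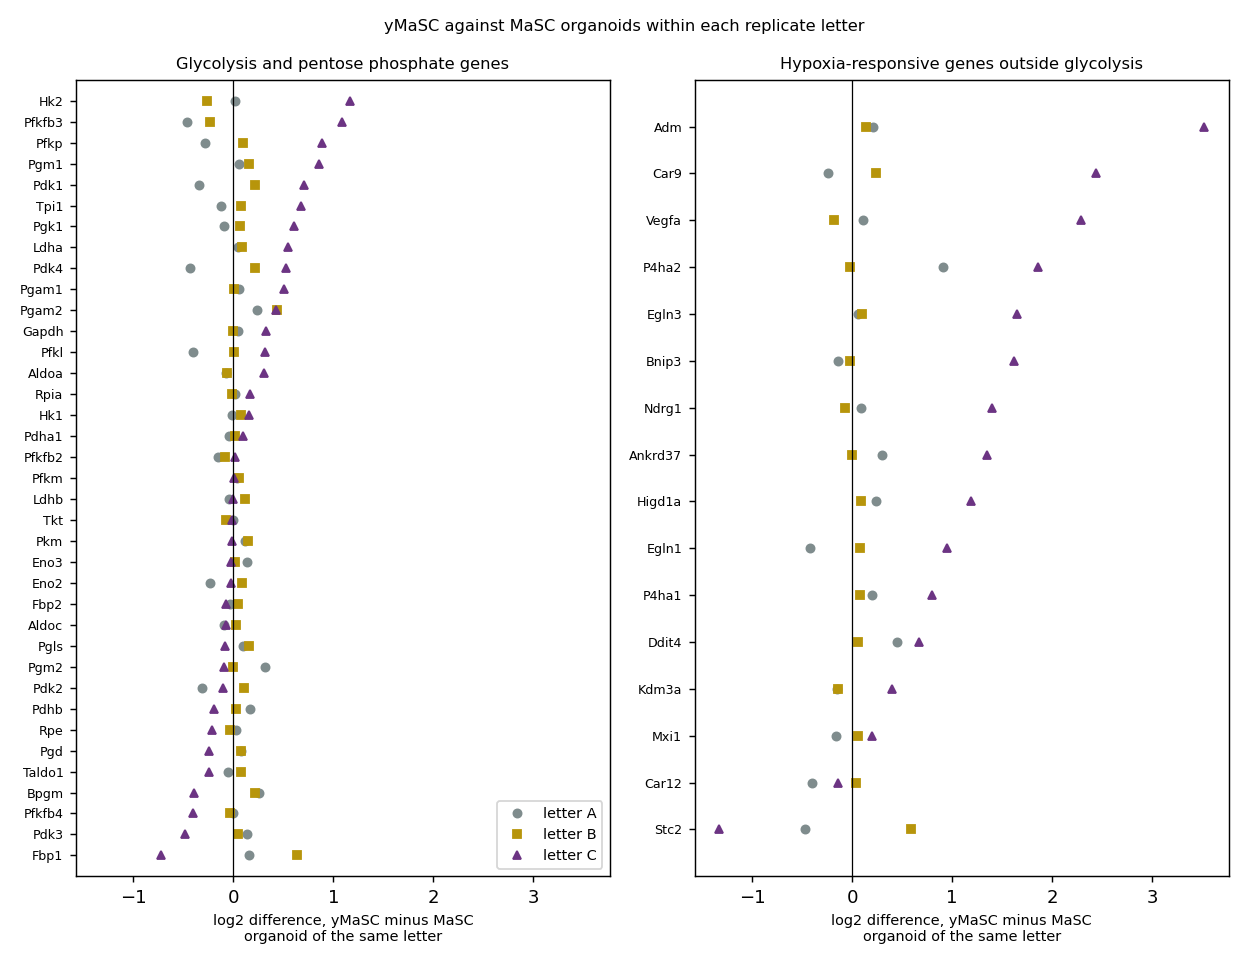
Log2 difference of the yMaSC organoid from the MaSC organoid of the same letter (x axis) for the 37 measured enzyme genes (left) and the 16 measured hypoxia-responsive genes outside glycolysis (right), each ordered by letter C; a mark is 1 pair of arrays, with no error. In letters A and B the marks stay near 0 for most genes, and in letter C 10 enzyme genes and 12 hypoxia-responsive genes exceed 0.5 (3.79% of all genes do).

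The letters were compared as well. In the 6 organoid arrays, with the kind of organoid in the model, 2 of the 37 genes differed among letters by limma's F test (5.52% of all genes did so), and 13 had an unadjusted p under 0.05 (25.2% of all genes did). The 2 that passed were Pdk4 (adjusted p = 0.013), whose mean was 3.39 in organoids C and 5.80 in organoids A and B, and Taldo1 (adjusted p = 0.041), at 11.00 in organoids C and 11.70 in A and B. Hk2 and Pfkfb3 ran the other way, with means of 8.52 and 7.04 in organoids C and 6.91 and 5.58 in A and B, and did not pass (adjusted p = 0.074 and 0.10). Txnip, a glucose-responsive inhibitor of glucose uptake named here after its values were seen, read 8.11 in yMaSC organoid C and 8.27 in MaSC organoid C, against 11.03 and 11.83 in yMaSC organoids A and B and 11.25 and 11.98 in MaSC organoids A and B. Organoids C of both kinds also held more RNA of dividing cells than organoids A and B. Mki67 read 8.30 in yMaSC organoid C and 8.37 in MaSC organoid C, against 4.88 to 5.39 in organoids A and B. In LD samples A, B and C it read 8.82, 6.09 and 8.36. The part of cell division in the letter differences, or in the differences from and among LD samples, was not tested.

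LD sample B had the lowest value of the 3 LD samples for 24 of the 37 genes, sample C for 7 and sample A for 5, with 1 gene tied, while over all genes sample B was lowest for 37.4%. With LD sample B and both organoids C left out together, a choice made after seeing the data, 20 of the 37 genes were higher and 10 lower in yMaSC organoids, and 21 were higher and 10 lower in MaSC organoids. Without LD sample B alone the counts were 19 and 8 in yMaSC organoids and 17 and 8 in MaSC organoids. In both settings and both kinds of organoid, a larger share of the 37 genes than of all genes tested was higher. The share that was lower was also larger among the 37 than among all genes. Among genes above the median level, with every array kept, that share was smaller for the enzyme genes than for all. Without LD sample B and both organoids C, more of all genes were called in each direction, in both kinds, than with all arrays. Without LD sample B alone, fewer of all genes were higher in both kinds. With no array left out, 21.6% of all genes were higher and 14.3% lower in yMaSC organoids. In MaSC organoids these shares were 22.1% and 15.2%.

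The promoters of the genes were read to see whether genes that moved together share short sequence words. Promoters were taken from RefSeq (GRCm38.p6) as 250 bases before and 50 bases after each annotated start, and all 37 genes matched, with 52 promoters. The word ACGTG, searched on both strands, is a core recognized by hypoxia-inducible factors and, where it lies inside CACGTG, by Myc and related factors. It occurred in 16 of 33 promoters (48.5%) of the 19 genes that were higher in both kinds of organoid, in 4 of 8 (50%) of the 7 genes that were lower in both, and in 2 of 11 (18.2%) of the others. Counted by gene, at least 1 promoter held it for 13 of the 19 and for 3 of the 7, since genes differ in how many starts are listed. It was so for 18 of all 37 genes, and for 3777 of the 14453 tested genes that matched a promoter. Over all 52 promoters the share was 42.3%, over the promoters of those 14453 genes 22.9%, and over every promoter in RefSeq's list 19.6%. The word TGACNNNGC, the core of the antioxidant response element and likewise searched on both strands, occurred in 13.5% of the 52 promoters and in 13.9% of those of the 14453 genes. A word is a match of letters and not a bound site.

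The 250 bases before the start are shown for 4 genes that were all among the 10 with a higher value in yMaSC organoid C, of which Ldha and Pgk1 were higher and Hk2 and Pfkfb3 lower in organoids than in LD cells (Hk2 in MaSC organoids). Where a gene has several starts, the one with the most matches in these bases was taken. They lie at chr7:46845554-46845803 on the plus strand, chrX:106186850-106187099 on the plus strand, chr6:82774455-82774704 on the minus strand and chr2:11553930-11554179 on the minus strand, and each runs 5′ to 3′ along its gene. Capitals mark ACGTG or its reverse complement CACGT, and CACGTG where they overlap, which was counted as 1 place.
Ldha: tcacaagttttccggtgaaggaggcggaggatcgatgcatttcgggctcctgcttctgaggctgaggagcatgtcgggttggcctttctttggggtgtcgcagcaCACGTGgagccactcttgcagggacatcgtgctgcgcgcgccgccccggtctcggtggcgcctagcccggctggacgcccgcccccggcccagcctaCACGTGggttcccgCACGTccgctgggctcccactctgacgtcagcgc
Pgk1: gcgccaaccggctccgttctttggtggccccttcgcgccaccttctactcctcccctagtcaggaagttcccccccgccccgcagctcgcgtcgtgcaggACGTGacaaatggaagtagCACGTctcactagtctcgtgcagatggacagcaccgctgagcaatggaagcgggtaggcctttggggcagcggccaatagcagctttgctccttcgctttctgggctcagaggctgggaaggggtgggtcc
Hk2: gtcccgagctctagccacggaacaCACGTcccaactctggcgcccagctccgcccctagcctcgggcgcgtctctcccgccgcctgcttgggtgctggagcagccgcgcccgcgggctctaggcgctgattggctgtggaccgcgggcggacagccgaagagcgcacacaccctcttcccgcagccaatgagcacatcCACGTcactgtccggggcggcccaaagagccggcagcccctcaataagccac
Pfkfb3: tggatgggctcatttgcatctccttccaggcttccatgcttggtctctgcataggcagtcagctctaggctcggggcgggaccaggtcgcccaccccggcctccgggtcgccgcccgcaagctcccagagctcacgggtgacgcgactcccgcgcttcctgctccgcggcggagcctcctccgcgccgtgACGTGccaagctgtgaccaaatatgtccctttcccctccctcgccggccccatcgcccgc
Ldha carried 3 such places, Pgk1 and Hk2 carried 2 each, and Pfkfb3 carried 1. Ldha and Pfkfb3 thus shared the word while their levels in organoids lay on opposite sides of LD cells. Of the other genes with a higher value in yMaSC organoid C, Pgm1 and Pgam1 held the word. Pfkp, Pdk1, Tpi1 and Pdk4 held it in none of their promoters.

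Other genes of glucose use were listed beside the 37, and are read against the shares of all genes given above (21.6% higher and 14.3% lower in yMaSC organoids, 22.1% higher and 15.2% lower in MaSC organoids). Of 15 measured genes for glucose entry and for lactate or pyruvate carriers, 4 were higher and 2 lower in yMaSC organoids, and 4 were higher and 3 lower in MaSC organoids. The neuronal-type glucose carrier Slc2a3 was lower (log2 -1.26 in yMaSC and -1.27 in MaSC organoids). The monocarboxylate carrier Slc16a7 was higher (1.24 in yMaSC and 1.15 in MaSC organoids), as was the glucose 6-phosphate carrier Slc37a4 (1.35 in yMaSC and 1.16 in MaSC organoids). Of 24 other isozymes and side-branch genes, 6 were higher and 2 lower in yMaSC organoids, and 7 were higher and 2 lower in MaSC organoids. Gfpt2, which sends fructose 6-phosphate into hexosamines, read 5.63 to 5.83 in yMaSC organoids, 5.23 to 6.08 in MaSC organoids and 9.34 to 9.58 in LD cells, a log2 difference of -3.75 in yMaSC organoids (adjusted p = 5.8e-06) and -3.79 in MaSC organoids (adjusted p = 4.7e-06). In the same list Gpd2, the mitochondrial glycerol phosphate dehydrogenase, was lower (log2 -1.90 in yMaSC and -1.94 in MaSC organoids), and Pgm2l1, a glucose 1,6-bisphosphate synthase, was higher (1.89 in yMaSC and 1.95 in MaSC organoids). Of 14 other genes of the pyruvate dehydrogenase complex and gluconeogenesis, 2 were higher and 2 lower in each kind. Me1, the cytosolic malic enzyme that makes NADPH, was higher (log2 1.84 in yMaSC and 1.76 in MaSC organoids). Pdp1, a phosphatase that undoes the work of the pyruvate dehydrogenase kinases, was lower (-1.57 in yMaSC and -1.97 in MaSC organoids), and Dlat, the acetyltransferase of the complex, was higher by less (0.45 in yMaSC and 0.43 in MaSC organoids).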

How the data were processed

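Per the labels, total RNA of 9 samples was hybridized to Affymetrix mouse expression arrays, 3 for each of yMaSC organoids, MaSC organoids and LD cells. The deposited values are log2 intensities that the authors computed with RMA; no version of RMA is given in the sources used here. It held 0 columns of other samples. The lower quartiles of the arrays were 3.47 to 3.59, and the number of arrays limits the precision.

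By the platform annotation 34958 of 45101 probe sets had 1 gene, 932 several and 9211 none, and of the first 34754 were found in RefSeq by gene identifier. Of a gene's probe sets the one with the highest mean was used (19 of the 37 enzyme genes had more than 1). With R 4.3.3 and limma 3.58.1, a model of the 3 groups was fitted to each of 18194 genes with no filter on low values, and p was adjusted by Benjamini-Hochberg over all of them. The scripts were tested on simulated data. Letters paired the organoids (r = 0.607, 0.611 and 0.649) but not organoids with LD cells (r from -0.046 to 0.045). The genes named were all enzyme genes of the list, and per further list up to 3 that passed in both comparisons with the largest change. The enzyme genes, the further lists and the tests were chosen with earlier results of these data known.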

Additional observations from a re-analysis of the deposited data

How the results depend on the processing

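The enzyme genes were counted again with the mean of all probe sets, only genes above the median level, a common median, quantile normalization, a trended and robust prior, array weights, the compared groups alone, a limit of 2-fold, the letter as a block, and each array or both organoids C left out. Of 1523 results and settings for single genes, 1409 kept direction and side of the threshold, 70 lost the call, 28 gained it and 16 changed direction. Among genes above the median level only 3 were lower in yMaSC organoids and 4 in MaSC organoids, since dim genes were not tested there. Leaving out 1 array gave 5 to 9 lower genes in MaSC organoids, with 5 without LD sample A and 5 without MaSC organoid A. Over all genes, fewer were also lower in MaSC organoids without LD sample A or MaSC organoid A, and fewest without the latter. With the replicate block, 20 genes were higher and 7 lower in yMaSC organoids. In MaSC organoids 20 were higher and 9 lower, and 0 differed between the organoids. Over all genes the block also raised both counts in each kind of organoid. Among single calls the block added Pfkp in MaSC organoids. With at least 2-fold changes, 16 were higher and 5 lower in yMaSC organoids (10.8% and 6.4% of all genes), and 14 were higher and 7 lower in MaSC organoids (11.2% and 6.69%).

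The direction changed only for small differences that had not passed. Against LD cells in MaSC organoids, Pgam2 ranged from -0.175 to 0.095 log2 with 1 array left out, was 0.0467 without both organoids C and 0.0200 also without LD sample B, and Pgls ranged from -0.2467 to 0.0333. In yMaSC organoids Pgls ranged from -0.1267 to 0.0933, Taldo1 from -0.0483 to 0.4267, and Pdhb was 0.0083 with the mean of probe sets. Without LD sample B and both organoids C, Pdha1 was -0.08 in yMaSC and -0.07 in MaSC organoids, and Eno3 was 0.01 in yMaSC organoids. Between the organoids, Pgm1 ranged from -0.0517 to 0.6533 and Hk2 from -0.44 to 0.76, each lowest without yMaSC organoid C and highest without yMaSC organoid A, and Hk2 was -0.12 without both organoids C. The cause was not tested. Calls that failed when some single arrays were left out were those of Fbp1 and Pgd, of Pdk4, Hk2, Pgm1, Pgk1 and Fbp2 in MaSC organoids, and of Pfkp in yMaSC organoids (0.44 log2, adjusted p = 0.24 with the mean of probe sets).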

Other observations

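Genes of oxidative stress defence moved both ways. Of 13 measured genes of the Nrf2 program, 3 were higher and 7 lower in each kind of organoid than in LD cells. Of all genes tested, 21.6% were higher and 14.3% lower in yMaSC organoids, and 22.1% were higher and 15.2% lower in MaSC organoids, and these shares stand beside the counts of the other lists as well. Nqo1, a quinone reductase, read 10.25 to 10.42 in yMaSC organoids, 10.29 to 10.46 in MaSC organoids, and 5.94, 8.23 and 7.11 in LD cells (log2 difference 3.21 in yMaSC and 3.31 in MaSC organoids). Cbr3, a carbonyl reductase, was higher by 2.64 log2 in yMaSC and 2.75 in MaSC organoids. Srxn1, which restores peroxiredoxins, was lower (log2 -2.12 in yMaSC and -2.19 in MaSC organoids).

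Of 21 measured regulators of glycolytic genes, 10 were higher and 1 was lower in yMaSC organoids, and 9 were higher and 1 was lower in MaSC organoids. The lower one was Myc, at 8.12, 7.94 and 9.01 in yMaSC organoids, 7.47, 7.79 and 8.21 in MaSC organoids, and 10.04, 10.49 and 10.09 in LD cells (log2 -1.85 in yMaSC and -2.38 in MaSC organoids). Nfe2l2, which encodes Nrf2, was higher (1.19 in yMaSC and 1.23 in MaSC organoids), as was the nuclear receptor Esrra (1.10 in yMaSC and 1.08 in MaSC organoids). Of the 16 measured hypoxia-responsive genes outside glycolysis, 8 were higher and none lower in yMaSC organoids, and 6 were higher and none lower in MaSC organoids. The carbonic anhydrase gene Car12 had the largest difference of this list (5.54 in yMaSC and 5.71 in MaSC organoids), with Car9 (4.01 in yMaSC and 3.20 in MaSC organoids) and the mitophagy gene Bnip3 (3.08 in yMaSC and 2.59 in MaSC organoids) next.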
